A study of Mus musculus with 15 samples.

Results

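The genes described are 10 astrocyte genes for the handling of water, potassium and glutamate, for coupling between cells, and for general astrocyte function: Aqp4, Kcnj10, Slc1a2, Slc1a3, Glul, Gja1, Gjb6, Aldh1l1, S100b and Sox9. They were taken by symbol from a table of 33321 genes, and all 10 were among the 16795 that passed the filter on low counts. Tissue came from the corpus callosum, the white matter tract between the hemispheres of the mouse brain. The groups were the L-NIO injection site (LNIO-Ipsil), the LPC injection site (LPC-Ipsil), the contralateral tissue of each (LNIO-Contra, LPC-Contra) and the site injected with saline in sham mice (Sham-Ipsil), with 3 libraries each. Both injuries and their contralateral tissue were sampled on day 4, and no day is named for sham tissue. No contralateral sham tissue was analysed here, so side and injury cannot be told apart where contralateral tissue is set against Sham-Ipsil. Lysophosphatidylcholine (LPC) is a detergent-like lipid that strips myelin, and L-NIO blocks nitric oxide synthase and is used to model white matter stroke. The sources used here do not name strain, sex or age. Nor do they tie each library to its own mouse, so p-values measure only how far these libraries spread, which may be technical.

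Astrocytes clear glutamate from the space around axons and turn it into glutamine. They also take up potassium, pass it on through gap junctions, and exchange water with blood vessels at their endfeet. These genes are widely used as astrocyte markers, and Gfap is among the astrocyte genes that injury is known to raise. Kcnj10, Glul and S100b are also known to be expressed by oligodendrocyte-lineage cells, which abound in white matter.

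Library totals ran from 14896445 to 20916606 counts, and each of the 10 genes had 270 or more counts in every library. Levels below are CPM (counts scaled to library size, adjusted by TMM). A pair of libraries stood apart from their groups. LPC-Ipsil replicate 3 lay at -11.5 on the first principal component (29.5% of variance), near the saline libraries (-30.1 to -23.6), whereas LPC-Ipsil replicates 1 and 2 lay at 81.6 and 54.3. LPC-Contra replicate 2 lay at -69.6 on the second component, beyond all others (-21.7 to 33.5). Its difference from the mean of the remaining libraries fell with gene length (Spearman rho -0.489 across genes). The same measure gave -0.245 to 0.267 in the other libraries. Values without these libraries are given where they change a call or a value by much. The 7 microglia markers summed to 654 to 1010 CPM in LNIO-Ipsil, 408 to 2539 in LPC-Ipsil, 289 to 365 in LNIO-Contra, 335 to 468 in LPC-Contra and 298 to 350 CPM in Sham-Ipsil. Of the markers of other cell types, none found among the counts was at 0 in any group, and Hbb-bs (red blood cells) was not found. The 3 choroid plexus markers summed to 115 to 691 CPM in LNIO-Ipsil, 40.0 to 516 in LPC-Ipsil and 39.0 to 1369 CPM in Sham-Ipsil. They summed to 64.4 to 1195 CPM in LNIO-Contra and 25.0 to 1024 CPM in LPC-Contra. The part of this spread in the values of the 10 genes was not tested. In bulk tissue, fewer cells of a type and less RNA per cell cannot be told apart.

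Levels were compared between genes as FPKM, which divides by gene length. In Sham-Ipsil, glutamine synthetase (Glul) stood at 260 ± 11.5 FPKM and the glutamate transporter Slc1a2 at 244 ± 15.7 FPKM (SD, n = 3), at percentiles 99.6 and 99.5 of tested genes. S100b followed at 77.2 ± 8.81, Kcnj10 at 60.2 ± 1.92, Slc1a3 at 58.8 ± 2.23, Aqp4 at 34.0 ± 10.01 and Gja1 at 21.9 ± 1.03 FPKM. Aldh1l1 at 8.42 ± 0.56, Gjb6 at 7.33 ± 1.03 and Sox9 at 5.73 ± 0.31 FPKM were the lowest. Neighbours whose values overlapped between sham libraries were Glul and Slc1a2, Kcnj10 and Slc1a3, and Aldh1l1 and Gjb6. Over all 15 libraries Gja1 always ranked seventh, whereas Kcnj10 and Slc1a3 changed places, with Kcnj10 the higher in 6. Slc1a2 exceeded Glul in 1 library, and Gjb6 exceeded Sox9 in 12.

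**Figure D1:**
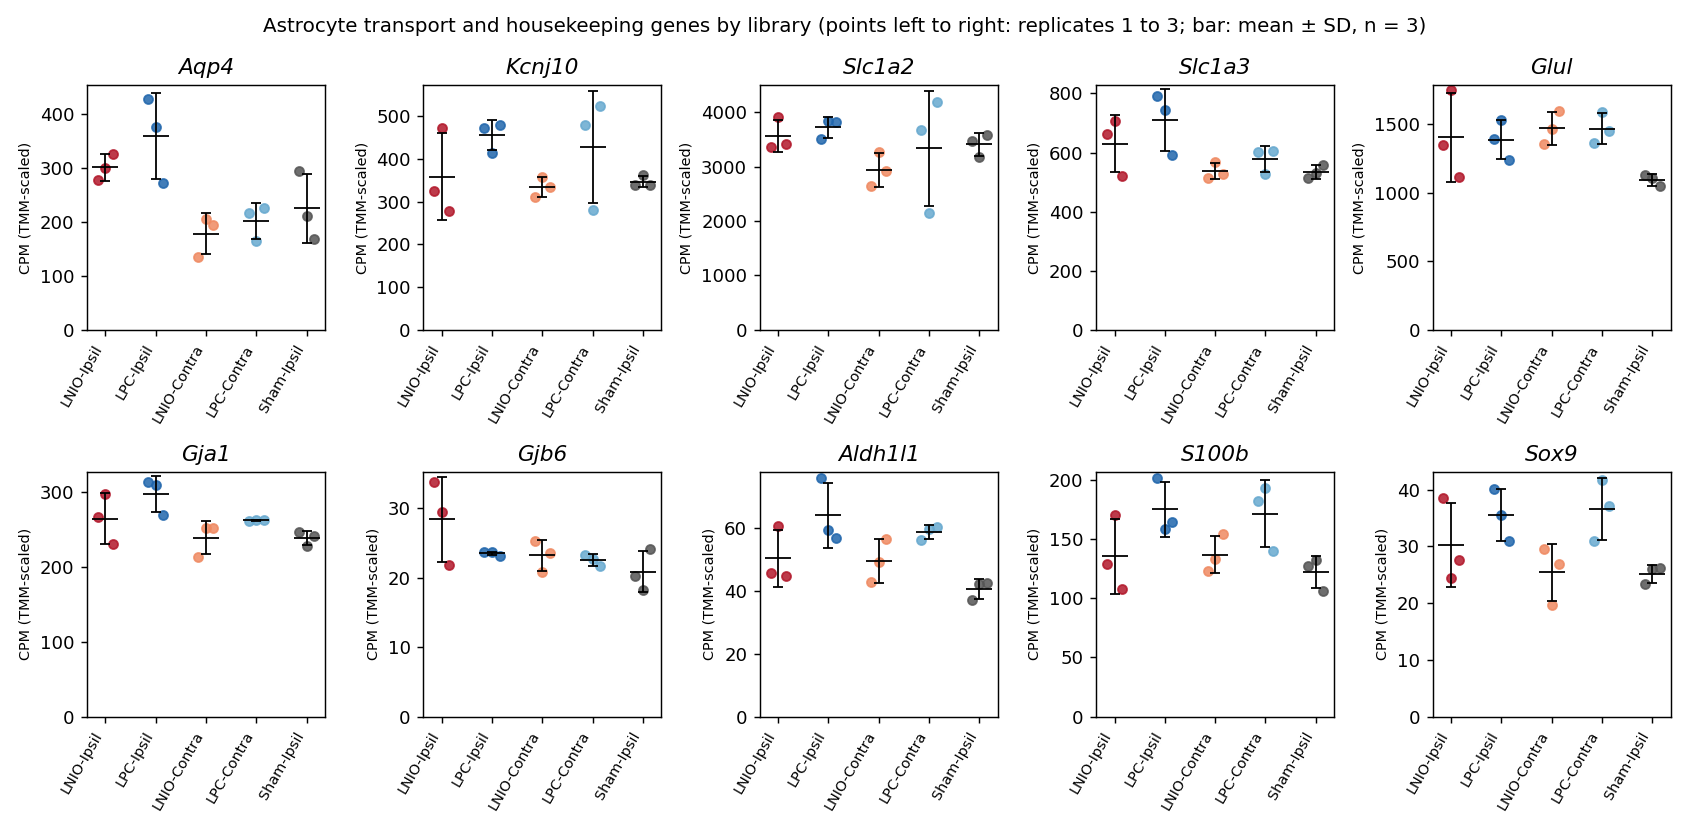
CPM of each gene (vertical axes, from 0) in the 3 libraries of each group, with points for replicates 1 to 3 from left to right and bars for the mean and SD. Aldh1l1 lies above the saline libraries in all 12 other libraries, whereas Aqp4 runs from 134.5 CPM in an LNIO-Contra library to 429 CPM in an LPC-Ipsil library.

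Against the highest saline library, the genes were most often higher in LPC tissue. Of the 10 genes, LNIO-Ipsil libraries had 6, 9 and 3 above it, LPC-Ipsil libraries 8, 9 and 8, LNIO-Contra libraries 4, 5 and 5, and LPC-Contra libraries 8, 5 and 8. Among all tested genes 22.1% to 37.3% were above the highest saline library in these 12 libraries. By gene, Aldh1l1 was above it in 12 of 12, Glul in 11, Gja1 and Sox9 in 10 each, S100b in 9 and Slc1a3 in 8. The others were Kcnj10 with 6, Slc1a2 with 5, Aqp4 with 4 and Gjb6 with 3. All these counts rest on the same 3 saline libraries. The share of all genes with such counts over the 12 libraries was not computed, so the order only describes these genes.

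Promoter sequences of those leading genes, Glul and Aldh1l1, are shown because their levels exceeded every saline library most often. RefSeq entries on GRCm38.p6, covering 250 bases before to 50 after the start of the gene, matched 8 of the 10 genes. The search left out a whole chromosome, for these genes and for the background alike, so an unmatched gene may still have an entry. Capitals mark the CCAAT motif on either strand (ATTGG is its reverse complement), a motif chosen after the sequences were seen.
Glul (chr1:153899679-153899978, plus strand): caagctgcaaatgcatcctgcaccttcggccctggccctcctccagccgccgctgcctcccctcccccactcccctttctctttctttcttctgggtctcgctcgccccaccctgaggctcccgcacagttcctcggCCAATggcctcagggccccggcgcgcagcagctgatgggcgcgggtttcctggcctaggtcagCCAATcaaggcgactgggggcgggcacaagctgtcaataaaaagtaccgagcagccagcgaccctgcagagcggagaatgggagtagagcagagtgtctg
Aldh1l1 (chr6:90550543-90550842, plus strand): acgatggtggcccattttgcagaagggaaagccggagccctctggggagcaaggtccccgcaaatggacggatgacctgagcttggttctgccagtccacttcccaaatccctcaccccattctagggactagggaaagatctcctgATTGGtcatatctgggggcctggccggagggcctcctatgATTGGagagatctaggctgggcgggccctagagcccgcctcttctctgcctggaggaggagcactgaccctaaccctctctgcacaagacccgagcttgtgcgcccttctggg
Both windows held 2 matches, and 5 of the 8 matched genes held at least 1: Kcnj10, Slc1a3, Glul, Aldh1l1 and S100b. The same motif was in 37.4% of 32851 promoters of this length. TTGGC, the letters of a nuclear factor I site arm, was searched on both strands. It was in 4 of the 8 (Kcnj10, Slc1a2, Glul and S100b) and in 46.7% of the promoters searched. TTGGC overlaps CCAAT where the letters read GCCAAT. The windows of Gja1 and Gjb6 held neither string.

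The first question was what the injury sites showed for water and potassium channels. Aqp4, the water channel of astrocyte endfeet, had 277, 299.5 and 327 CPM in LNIO-Ipsil, 429, 377 and 273 in LPC-Ipsil, 134.5, 206 and 194 in LNIO-Contra, 217, 164 and 226 in LPC-Contra, and 295, 211 and 169 CPM in Sham-Ipsil. Saline libraries themselves spread widely, so the injury sites overlapped them, but each injury site lay wholly above its own contralateral side. Its log2 fold change against Sham-Ipsil was 0.42 ± 0.22 in LNIO-Ipsil (SE; edgeR adjusted p = 0.633) and 0.68 ± 0.22 in LPC-Ipsil (edgeR adjusted p = 0.0928). Without LPC-Ipsil replicate 3 the LPC-Ipsil value was 0.84 and passed the threshold of 0.05 (edgeR adjusted p = 0.0296). The saline libraries moved it as much: leaving out Sham-Ipsil replicate 1 gave 0.68 in LNIO-Ipsil and 0.93 in LPC-Ipsil, and leaving out Sham-Ipsil replicate 3 gave 0.22 and 0.44, none of them called.

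Kcnj10, the inward-rectifier potassium channel that takes up potassium, had 325, 474 and 278 CPM in LNIO-Ipsil, 473, 415 and 478 in LPC-Ipsil, 311, 358 and 334 in LNIO-Contra, 479, 279.9 and 525 in LPC-Contra, and 338, 362 and 340.2 CPM in Sham-Ipsil. All 3 LPC-Ipsil libraries were above the saline libraries, while LNIO-Ipsil libraries lay on both sides. The log2 fold change was 0.05 ± 0.21 for LNIO-Ipsil (edgeR adjusted p = 0.97) and 0.39 ± 0.21 for LPC-Ipsil (edgeR adjusted p = 0.321). LPC-Contra replicate 2, the library that stood apart, was the only low one of its group. The FPKM ratio of Aqp4 to Kcnj10 was 0.769 ± 0.236 in LNIO-Ipsil, 0.69 ± 0.168 in LPC-Ipsil, 0.46 ± 0.0736 in LNIO-Contra, 0.425 ± 0.0732 in LPC-Contra and 0.565 ± 0.171 in Sham-Ipsil (SD, n = 3). Saline ratios overlapped those of every other group, and the L-NIO sides did not overlap each other (0.549 to 1.02 in LNIO-Ipsil, 0.375 to 0.505 in LNIO-Contra).

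Glutamate uptake and glutamine synthesis came next. Slc1a2, the main glutamate transporter of the forebrain, had 3358, 3902 and 3417 CPM in LNIO-Ipsil, 3502, 3845 and 3811 in LPC-Ipsil, 2636, 3261 and 2915 in LNIO-Contra, 3670.0, 2155 and 4178 in LPC-Contra, and 3464, 3177 and 3580.0 CPM in Sham-Ipsil. The groups compared overlapped except for the sides of the L-NIO injury, and the lowest library was LPC-Contra replicate 2. Its log2 fold change was 0.06 ± 0.19 in LNIO-Ipsil (95% interval -0.34 to 0.47) and 0.13 ± 0.19 in LPC-Ipsil (95% interval -0.28 to 0.53) against Sham-Ipsil. Both intervals included no change, as well as changes of either sign up to their ends.

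The second glutamate transporter, Slc1a3, had 663, 707 and 521 CPM in LNIO-Ipsil, 793, 744 and 593 in LPC-Ipsil, 515, 567 and 529 in LNIO-Contra, 604, 529 and 605 in LPC-Contra, and 514, 529 and 559.6 CPM in Sham-Ipsil. LPC-Ipsil libraries were all above saline, and 2 of the 3 LNIO-Ipsil libraries were. The log2 fold change was 0.24 ± 0.14 in LNIO-Ipsil (edgeR adjusted p = 0.684) and 0.41 ± 0.14 in LPC-Ipsil (edgeR adjusted p = 0.105). Leaving out LPC-Ipsil replicate 3 gave 0.52 for LPC-Ipsil (edgeR adjusted p = 0.0306). In FPKM, Slc1a2 exceeded Slc1a3 by a ratio of 3.72 ± 0.499 in LNIO-Ipsil, 3.47 ± 0.659 in LPC-Ipsil, 3.55 ± 0.208 in LNIO-Contra, 3.7 ± 0.947 in LPC-Contra and 4.15 ± 0.24 in Sham-Ipsil. LNIO-Contra ratios (3.33 to 3.74) lay wholly below the saline ratios (3.9 to 4.38), and those of the other groups overlapped them.

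Glul, which joins ammonia to glutamate to make glutamine, had 1346, 1751 and 1114 CPM in LNIO-Ipsil, 1394, 1527 and 1240.0 in LPC-Ipsil, 1352, 1466 and 1593 in LNIO-Contra, 1363, 1587 and 1448 in LPC-Contra, and 1127, 1109 and 1047 CPM in Sham-Ipsil. Only 1 LNIO-Ipsil library fell within the saline range, and the means of the injured sides were not above those of their contralateral sides. The log2 fold changes against Sham-Ipsil were 0.36 ± 0.15 in LNIO-Ipsil, 0.34 ± 0.15 in LPC-Ipsil, 0.43 ± 0.15 in LNIO-Contra and 0.42 ± 0.15 in LPC-Contra. Unadjusted p was 0.0343, 0.0425, 0.0146 and 0.0155 for those 4 groups in edgeR, and none passed after adjustment (0.513, 0.229, 1.0 and 0.495). All 4 values share the same 3 saline libraries.

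Gap junction genes differed in pattern. Gja1, the major astrocyte connexin, varied least of the 10, with 213 to 313 CPM over all libraries, a 1.47-fold span against 3.19-fold for Aqp4. It had 266, 297 and 229.7 CPM in LNIO-Ipsil, 313, 309.7 and 269 in LPC-Ipsil, and 246, 228 and 242 CPM in Sham-Ipsil, so the LPC-Ipsil libraries lay above saline and the LNIO-Ipsil libraries overlapped it. Its log2 fold change was 0.15 ± 0.12 in LNIO-Ipsil (edgeR adjusted p = 0.801) and 0.32 ± 0.12 in LPC-Ipsil (edgeR adjusted p = 0.14).

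Gjb6, the second astrocyte connexin, had 33.8, 29.5 and 21.8 CPM in LNIO-Ipsil, 23.6, 23.6 and 23.2 in LPC-Ipsil, 25.2, 20.8 and 23.5 in LNIO-Contra, 21.6 to 23.3 in LPC-Contra, and 20.3, 18.3 and 24.0 CPM in Sham-Ipsil. The highest values came from LNIO-Ipsil replicates 1 and 2, with replicate 3 inside the saline range. Gjb6 was 0.44 ± 0.15 higher on the log2 scale in LNIO-Ipsil (edgeR adjusted p = 0.341) and 0.17 ± 0.15 in LPC-Ipsil (edgeR adjusted p = 0.584). Without Sham-Ipsil replicate 2 these were 0.32 and 0.02. LNIO-Ipsil against LPC-Ipsil gave 0.27 ± 0.15 (edgeR adjusted p = 0.618), and the interaction of injury and side 0.23 ± 0.21 (edgeR adjusted p = 1.0). LNIO-Ipsil replicate 1 also had the highest share of mitochondrially encoded counts of all libraries (15.9%, against 8.74% to 13.7% elsewhere), and the part of this in the Gjb6 value was not tested. The FPKM ratio of Gja1 to Gjb6 was 2.47 ± 0.37 in LNIO-Ipsil, 3.3 ± 0.234 in LPC-Ipsil and 3.02 ± 0.345 in Sham-Ipsil, with LNIO-Ipsil (2.05 to 2.74) and LPC-Ipsil (3.03 to 3.45) apart from each other and LNIO-Ipsil overlapping saline (2.62 to 3.26).

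Among the general astrocyte genes, Aldh1l1 rose in LPC-Ipsil tissue and was the single gene of the 10 to pass the test in any comparison. This folate-metabolising enzyme, a marker of nearly all astrocytes, had 45.4, 60.6 and 44.6 CPM in LNIO-Ipsil, 75.8, 59.1 and 56.8 in LPC-Ipsil, 42.61, 49.2 and 56.3 in LNIO-Contra, 55.9, 59.6 and 60.2 in LPC-Contra, and 37.0, 42.0 and 42.55 CPM in Sham-Ipsil. Every library outside Sham-Ipsil was above the highest saline library, LNIO-Contra replicate 1 only just. Mean CPM was 63.9 ± 10.4 in LPC-Ipsil and 40.5 ± 3.05 in Sham-Ipsil (SD, n = 3 each), a log2 fold change of 0.66 ± 0.15 (edgeR adjusted p = 0.0256). LNIO-Ipsil gave 0.31 ± 0.15 (edgeR adjusted p = 0.579). The LPC-Ipsil call passed under 15 of 24 other settings (0.52 to 0.71 in the other 9, edgeR or limma adjusted p of 0.0668 to 0.169), and leaving out any one Sham-Ipsil library, LPC-Ipsil replicate 1 or LPC-Ipsil replicate 2 lost the call with no change of sign.

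S100b, a calcium-binding protein, had 129, 170.1 and 108 CPM in LNIO-Ipsil, 202, 159 and 164 in LPC-Ipsil, 123, 133 and 154 in LNIO-Contra, 182, 193 and 139.6 in LPC-Contra, and 127, 132 and 106 CPM in Sham-Ipsil. Both LPC groups lay above the saline libraries, and both L-NIO groups overlapped them. The log2 fold change was 0.15 ± 0.18 in LNIO-Ipsil (edgeR adjusted p = 0.87) and 0.52 ± 0.18 in LPC-Ipsil (edgeR adjusted p = 0.103). S100b overlaps Dip2a on the opposite strand in GENCODE annotation and the strand setting of the counts is not given, so reads of the pair may be mixed. Dip2a itself had 0.12 ± 0.17 in LPC-Ipsil (edgeR adjusted p = 0.768).

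Sox9, the transcription factor that specifies glia, had 38.5, 24.5 and 27.7 CPM in LNIO-Ipsil, 40.2, 35.5 and 31.0 in LPC-Ipsil, 29.5, 19.8 and 26.9 in LNIO-Contra, 30.9, 41.8 and 37.2 in LPC-Contra, and 23.4, 26.0 and 26.2 CPM in Sham-Ipsil. As with S100b, both LPC groups were above saline and both L-NIO groups overlapped it. It differed from Sham-Ipsil by 0.26 ± 0.18 in LNIO-Ipsil (edgeR adjusted p = 0.762) and 0.50 ± 0.18 in LPC-Ipsil (edgeR adjusted p = 0.142). The LNIO-Ipsil value was 0.06 without LNIO-Ipsil replicate 1.

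**Figure D2:**
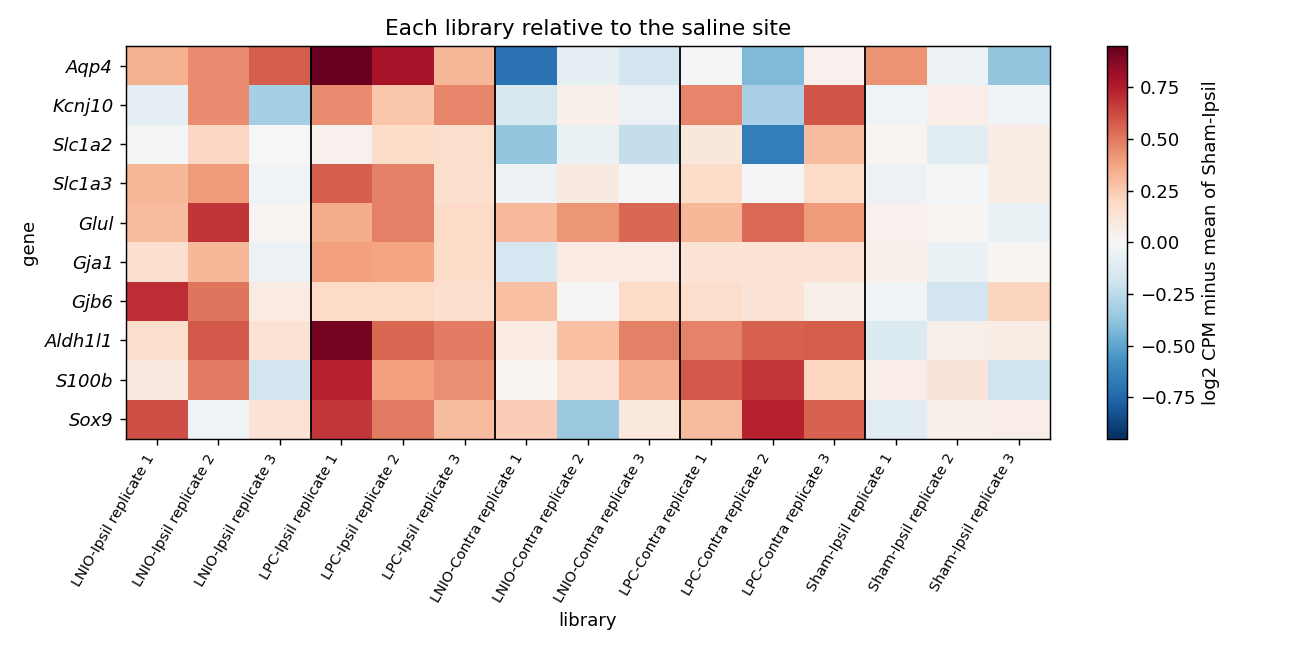
Log2 CPM of each gene (rows) in each library (columns) minus the Sham-Ipsil mean, with red for higher and blue for lower. The darkest red cells are Aqp4 and Aldh1l1 in LPC-Ipsil replicate 1, and LPC-Contra replicate 2 combines low Slc1a2 with high Sox9.

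Read over the 10 genes, LPC-Ipsil tissue had higher values than Sham-Ipsil for all 10, with a median log2 fold change of 0.40 against 0.01 over all tested genes. In edgeR 1 of the 10 was called, against 5.19% of all genes in either direction and 4.19% higher, so the share of the genes that passed rests on Aldh1l1 alone. An unadjusted p under 0.05 was reached by 7 of the 10, all higher, and by 20.2% of all genes (12.8% higher). In 7 of the 10 every LPC-Ipsil library exceeded every saline library, against 14% of all genes, the exceptions being Aqp4, Slc1a2 and Gjb6. Without LPC-Ipsil replicate 3, 3 of the 10 were called (Aqp4, Slc1a3 and Aldh1l1) and the median was 0.47. Calls over all genes rose in that fit too, to 1646 of 17119 tested. The same 3 were called with LPC-Contra replicate 2 also left out, where 2360 of 17106 genes were called. Without any one Sham-Ipsil library, LPC-Ipsil replicate 1 or LPC-Ipsil replicate 2, 0 of the 10 and at most 1 gene of all were called, with a median over the 10 of 0.35 to 0.42. The mean log2 difference of the 10 genes from saline was 0.53, 0.42 and 0.28 in the LPC-Ipsil libraries, replicate 3 being the lowest.

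Markers of other cell types also shifted in LPC-Ipsil, some higher and some lower. Microglia markers were called higher in 7 of 7, with a median log2 fold change of 2.38, and in 0 of 7 (median 1.85 to 2.38) without any one Sham-Ipsil library, LPC-Ipsil replicate 1 or LPC-Ipsil replicate 2. The 8 mature oligodendrocyte markers summed to 19890.0 to 30480.0 CPM in LPC-Ipsil and 15530.0 to 24510.0 CPM in Sham-Ipsil, highest in LPC-Ipsil replicate 3, with 0 called. Of 5 oligodendrocyte precursor markers 2 were called higher, and the list summed to 352 to 391 CPM in LPC-Ipsil and 237 to 296 CPM in Sham-Ipsil. The 5 neuroblast markers, with 1 called higher, summed to 114 to 133 CPM in LPC-Ipsil and 91.8 to 97.6 CPM in Sham-Ipsil. The 6 neuron markers summed to 2952 to 3809 CPM in LPC-Ipsil and 4009 to 5262 CPM in Sham-Ipsil, with 1 (Nefl) called lower. The 5 endothelial markers summed to 171 to 221 CPM in LPC-Ipsil and 141 to 155 CPM in Sham-Ipsil, with 0 called. Among reference genes, Csf1r (microglia) rose by 2.40 ± 0.45 (edgeR adjusted p = 0.0243), Mbp (myelin) stood at 0.38 ± 0.18 (edgeR adjusted p = 0.251) and Snap25 (neurons) at -0.47 ± 0.14 (edgeR adjusted p = 0.0722). The part of these shifts in the astrocyte values was not tested.

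LNIO-Ipsil tissue also had all 10 genes higher than Sham-Ipsil, with smaller values: the median log2 fold change was 0.25 against -0.02 over all genes. With edgeR 0 of the 10 genes and 0% of all genes were called. An unadjusted p under 0.05 was reached by 2 of the 10 (Glul and Gjb6, both higher) and by 1489 genes, 8.87% of all (5.77% higher). DESeq2 called 231 genes and limma on log2 FPKM 1 to 3 over its 3 settings, none of them among the 10. Without LPC-Ipsil replicate 3, edgeR called 398 genes, and without both libraries that stood apart 469, again none of the 10. Aldh1l1 was the only one of the 10 whose LNIO-Ipsil libraries all exceeded saline, against 10.1% of all genes. The mean log2 difference of the 10 genes was 0.26, 0.40 and 0.04 in replicates 1 to 3. Microglia markers were higher in every LNIO-Ipsil library than in any saline library, with 0 of 7 called (6 of 7 without LPC-Ipsil replicate 3) and a median log2 fold change of 1.40. The 6 ependymal markers, of a cell type next to the callosum that is also known to express Aqp4, S100b and Sox9, summed to 25.2 to 40.7 CPM in LNIO-Ipsil and 13.03 to 26.0 CPM in Sham-Ipsil, with 0 called. The part of these cells in the values of the 10 genes was not tested.

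**Figure D3:**
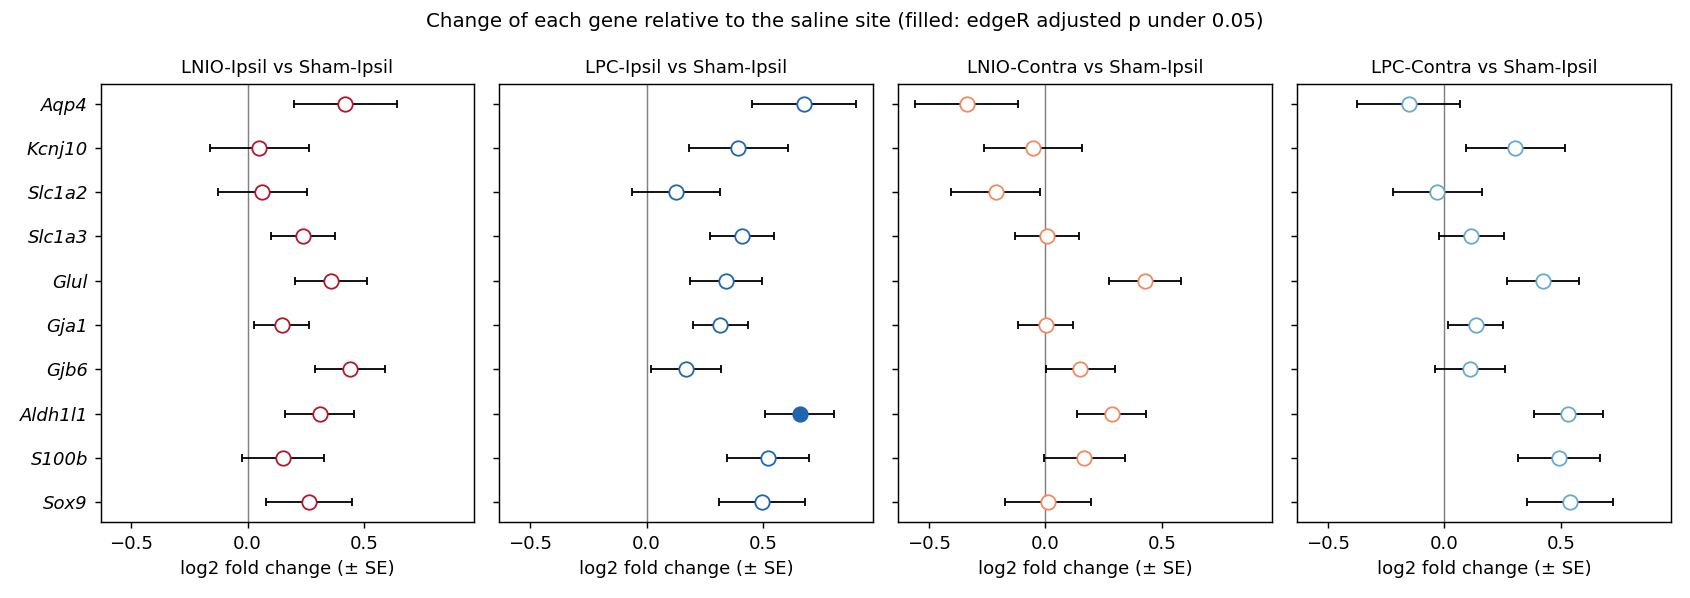
Log2 fold change against Sham-Ipsil with its SE for each gene, one panel per group, filled where the edgeR adjusted p is under 0.05. The single filled point is Aldh1l1 in LPC-Ipsil (0.66 ± 0.15), and Aqp4 lies right of 0 at both injury sites and left of 0 on both contralateral sides.

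Set directly against each other, LNIO-Ipsil was lower than LPC-Ipsil for 8 of the 10 genes, with a median log2 fold change of -0.20 against -0.04 over all genes. Aldh1l1 differed by -0.35 ± 0.15 (edgeR adjusted p = 0.565) and S100b by -0.37 ± 0.17 (edgeR adjusted p = 0.594). With edgeR 0 of the 10 and 0% of all genes were called. It gave an unadjusted p under 0.05 for 1 of the 10 (Aldh1l1, lower) and 8.39% of all genes (2.95% higher, the rest lower). DESeq2 called 14 genes, none of the 10. The groups overlapped for all 10, whereas LNIO-Ipsil lay wholly above LPC-Ipsil for 6.07% of all genes. The share of all genes with LNIO-Ipsil wholly below was not computed. Leaving out LPC-Ipsil replicate 3, edgeR called 241 genes between the injury sites, and without both libraries that stood apart 414, none of the 10 in either case.

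Contralateral tissue was also set against the saline site. In LPC-Contra 8 of the 10 genes were higher than in Sham-Ipsil, with a median log2 fold change of 0.22 against 0.02 over all genes. The general astrocyte genes and Glul stood highest: Aldh1l1 at 0.53 ± 0.15, S100b at 0.49 ± 0.18, Sox9 at 0.54 ± 0.18 and Glul at 0.42. None passed adjustment (edgeR adjusted p of 0.492 for the first 3), where 1 gene of all was called, 0.00595%. Those 4 had an unadjusted p under 0.05, as did 9.67% of all genes (4.24% higher), and with Gja1 they made 5 genes whose LPC-Contra libraries all exceeded saline, against 7.06% of all genes. Without LPC-Contra replicate 2 the 4 values were 0.52, 0.40, 0.44 and 0.36, Kcnj10 joined them at 0.54 to make 5 with an unadjusted p under 0.05, and the median was 0.29. DESeq2 called 29 genes here, none of the 10. By median, markers of some other cell types stood higher in the same tissue and others lower, none called. The lower ones were fibroblast (median log2 -0.45), red blood cell (-0.43), choroid plexus (-0.19) and neuron markers (-0.07). The 5 endothelial markers summed to 164.5 to 256 CPM in LPC-Contra and 141 to 155 CPM in Sham-Ipsil (median log2 0.66), and the 5 pericyte and smooth muscle markers to 123.2 to 177 CPM in LPC-Contra and 92.5 to 109.9 CPM in Sham-Ipsil (median log2 0.74), both without overlap. The 6 ependymal markers summed to 22.9 to 33.9 CPM in LPC-Contra and 13.03 to 26.0 CPM in Sham-Ipsil (median log2 0.72). Their part in the values of the 10 genes was not tested.

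In LNIO-Contra the median log2 fold change of the 10 genes against Sham-Ipsil was 0.01, against 0.00 over all genes, with 7 above and 3 below. Glul (0.43 ± 0.15) was the only one with an unadjusted p under 0.05, as in 2.72% of all genes (457; 1.05% higher), and Aqp4 stood lowest at -0.34 ± 0.22 (edgeR adjusted p = 1.0). Glul and Aldh1l1 (0.28 ± 0.15) were above saline in every LNIO-Contra library, against 5.01% of all genes. With edgeR 0 of the 10 and 0% of all genes were called, and DESeq2 called 2 genes, none of the 10.

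Between the contralateral sides, Sox9 was 0.53 ± 0.18 lower on the log2 scale in LNIO-Contra than in LPC-Contra (-0.53, edgeR adjusted p = 1.0), with no overlap between the groups. Gja1 did not overlap either (213, 251.5 and 251.9 CPM in LNIO-Contra against 261, 262 and 262.5 CPM in LPC-Contra). These were 2 of the 10 with LNIO-Contra wholly lower, against 4.67% of all genes (3.88% wholly higher). The median over the 10 was -0.18, and 0 of the 10 and 0% of all genes were called in edgeR. Its unadjusted p was under 0.05 for 1 of the 10 (Sox9, lower) and 3.43% of all genes (1.57% higher, the rest lower). DESeq2 called 6 genes, none of the 10. Without LPC-Contra replicate 2, 3 of the 10 were under an unadjusted p of 0.05: Kcnj10 at -0.59, Slc1a2 at -0.42 and Sox9 at -0.43, with edgeR adjusted p of 0.484, 0.484 and 0.571.

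Comparing the injured with the contralateral side, Aqp4 had the largest difference of the 10 genes in both injuries. Aqp4 averaged 301 ± 24.8 CPM in LNIO-Ipsil and 178 ± 38.2 CPM in LNIO-Contra, a log2 fold change of 0.76 ± 0.22 (edgeR adjusted p = 0.363). It averaged 359 ± 79.2 CPM in LPC-Ipsil and 202 ± 33.4 CPM in LPC-Contra, a log2 fold change of 0.83 ± 0.22 (edgeR adjusted p = 0.0794). Neither passed the threshold, although the sides did not overlap in either injury. Without LPC-Ipsil replicate 3 the LPC value was 0.99 (edgeR adjusted p = 0.0148), and without both libraries that stood apart 0.86 (edgeR adjusted p = 0.0405). Without LPC-Contra replicate 2 alone it was 0.70 and not called (edgeR adjusted p = 0.182). DESeq2 called it in the LPC comparison (adjusted p = 0.0169), and edgeR fitted to the L-NIO groups alone called it there (0.77, adjusted p = 0.0385). Aqp4 was 1 of 10 with an unadjusted p under 0.05 in each comparison, against 6.08% of all genes (4.83% higher) for L-NIO and 12.1% (8.53% higher) for LPC.

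The remaining genes differed less by side. Slc1a3 was 0.23 ± 0.14 higher on the log2 scale in LNIO-Ipsil than LNIO-Contra and 0.29 ± 0.14 higher in LPC-Ipsil than LPC-Contra (edgeR adjusted p = 0.976 and 0.415). Gja1 stood at 0.18 ± 0.12 for the LPC sides with no overlap, and Slc1a2 at 0.28 ± 0.19 and Gjb6 at 0.29 ± 0.15 for the L-NIO sides, Slc1a2 with no overlap. The injured side lay wholly above the contralateral side for 2 of the 10 genes in L-NIO (7.91% of all genes). In LPC it did so for 2 of the 10 (7.06% of all). The share of all genes with the injured side wholly below was not computed. Glul, Aldh1l1, S100b and Sox9, the genes highest in LPC-Contra, had side differences between -0.08 and 0.25. With edgeR 0 genes of all were called in either comparison, against 168 (L-NIO) and 671 (LPC) with DESeq2. When LPC-Ipsil replicate 3 was left out, edgeR called 380 (L-NIO) and 950 (LPC), without both libraries that stood apart 393 and 1283, and on the L-NIO groups alone 359. The interaction of injury and side ran from -0.10 to 0.29 over the 10 genes, with none under an unadjusted p of 0.05, as against 1.02% of all genes (0.578% higher), and 0 genes called by edgeR or DESeq2.

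**Figure D4:**
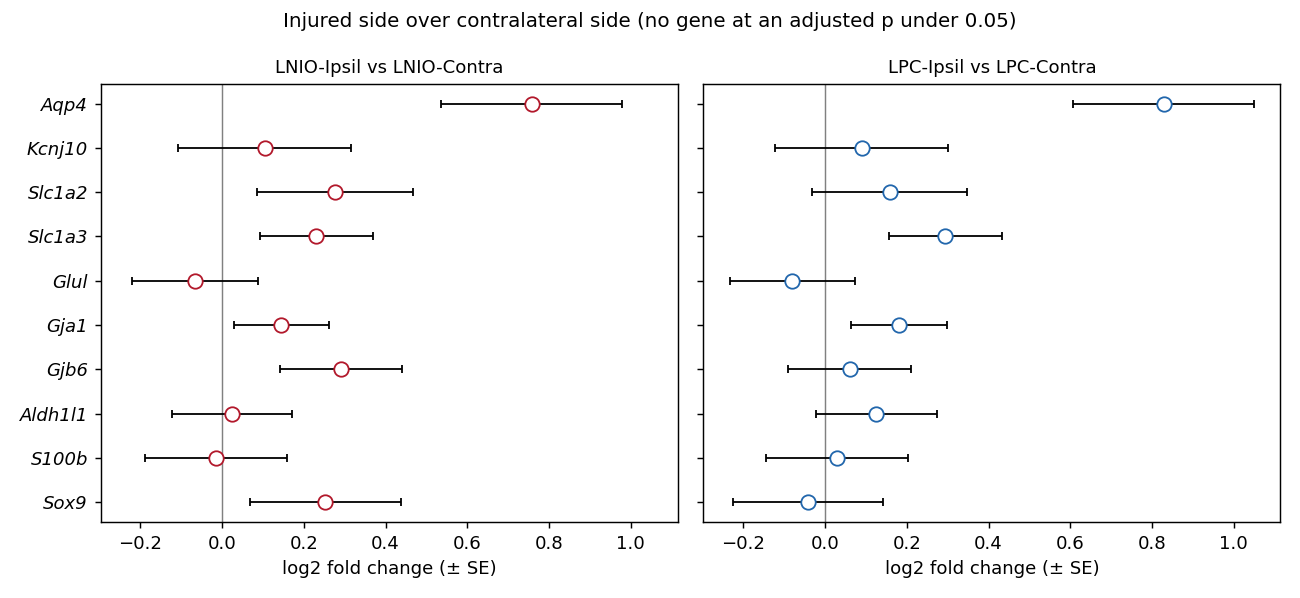
Log2 fold change with its SE of each gene between the injured and the contralateral side, for L-NIO (left) and LPC (right). Aqp4 (0.76 and 0.83) lies to the right of the other genes, and no gene has an edgeR adjusted p under 0.05.

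The genes did not follow a single profile over the libraries. After centring each gene on its mean log2 CPM over the 15 libraries, Gja1 and Slc1a3 lay closest to the mean profile of the 10, with root mean square differences of 0.06 and 0.08, and Sox9 and Aqp4 lay farthest, at 0.26 and 0.35. The closest pair was Slc1a3 and Gja1 (0.09) and the farthest Aqp4 and Sox9 (0.49). Outside the 10, the genes nearest to the mean profile were Nfia (0.08), Acbd3 (0.09), Plcd4 (0.10), Rfwd3 (0.10) and Emp2 (0.10), over the 15 libraries.

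Further astrocyte lists placed the 10 genes among their neighbours. In LPC-Ipsil 5.19% of all genes were called, and every call in the further lists was lost without any one Sham-Ipsil library, LPC-Ipsil replicate 1 or LPC-Ipsil replicate 2. Of 10 genes of endfeet and volume regulation, 1 passed in LPC-Ipsil: Mlc1, a membrane protein of astrocyte endfeet, at 182 ± 47.2 CPM in LPC-Ipsil and 110.4 ± 11.997 CPM in Sham-Ipsil (log2 0.72 ± 0.19, edgeR adjusted p = 0.0372). Its partner Hepacam had 0.30 ± 0.13 (edgeR adjusted p = 0.202) and the dystroglycan gene Dag1 0.41 ± 0.19 (edgeR adjusted p = 0.231). The medians of this list were 0.09 in LNIO-Ipsil, with 0 called, and 0.27 in LPC-Ipsil. Of 17 genes of astrocyte identity and metabolism, 1 passed in LPC-Ipsil, the transcription factor Nfia (0.45 ± 0.11, edgeR adjusted p = 0.0275), and the medians were 0.10 in LNIO-Ipsil and 0.21 in LPC-Ipsil. Clu, the secreted chaperone clusterin, had 1018 ± 81.1 CPM in LPC-Ipsil and 727 ± 79.9 CPM in Sham-Ipsil (log2 0.49 ± 0.14, edgeR adjusted p = 0.066), and was called without LPC-Contra replicate 2.

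Transport lists beyond the 10 had no calls at either injury site with all libraries in the fit. Of 10 genes of amino acid transport and the glutamine cycle 6 were above 0 in LNIO-Ipsil (median 0.01) and 4 in LPC-Ipsil (median -0.10). Glutamate dehydrogenase (Glud1) had 0.18 ± 0.14 in LNIO-Ipsil and 0.39 ± 0.14 in LPC-Ipsil (edgeR adjusted p = 0.791 and 0.113). The glutamine transporter Slc38a3 had 0.16 ± 0.13 in LNIO-Ipsil and 0.36 ± 0.13 in LPC-Ipsil (edgeR adjusted p = 0.803 and 0.134). The mitochondrial glutamate carrier Slc25a18 stood at 0.41 ± 0.19 in LNIO-Ipsil and at -0.58 ± 0.19 in LPC-Ipsil (edgeR adjusted p = 0.567 and 0.105). LNIO-Ipsil against LPC-Ipsil gave 0.98 ± 0.19 for it (edgeR adjusted p = 0.329), with no overlap. The 5 sodium and bicarbonate genes had medians of -0.06 in LNIO-Ipsil and 0.27 in LPC-Ipsil, where Fxyd1, a sodium pump regulator, stood highest (0.67 ± 0.23, edgeR adjusted p = 0.103). The 5 gap junction partners had medians of -0.02 in LNIO-Ipsil and 0.27 in LPC-Ipsil. The LPC-Ipsil median was 0.16 without LPC-Ipsil replicate 3 and 0.14 without Sham-Ipsil replicate 3. It was 0.36 without Sham-Ipsil replicate 1, and also without LPC-Ipsil replicate 1. The amino acid median in LPC-Ipsil ran from -0.16 without Sham-Ipsil replicate 1 to -0.05 without LPC-Ipsil replicate 3. Fxyd1 was called in LPC-Ipsil without LPC-Ipsil replicate 3, and also without LPC-Contra replicate 2. Slc38a3 and Glud1 were called there without both.

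Reactive astrocyte genes had larger values than the 10, a list already known from earlier results of these libraries. All 13 were higher than Sham-Ipsil at both sites, with a median log2 fold change of 0.95 in LNIO-Ipsil and 1.45 in LPC-Ipsil, and 0 and 7 of them were called. The hyaluronan receptor Cd44 stood at 1.72 ± 0.40 in LNIO-Ipsil and rose by 2.13 ± 0.40 in LPC-Ipsil (edgeR adjusted p = 0.263 and 0.0243). Gfap, the intermediate filament, stood at 1.28 ± 0.45 in LNIO-Ipsil and rose by 2.05 ± 0.46 in LPC-Ipsil (edgeR adjusted p = 0.388 and 0.027). Without LPC-Ipsil replicate 3 the calls were 5 in LNIO-Ipsil and 10 in LPC-Ipsil. Without any one Sham-Ipsil library, LPC-Ipsil replicate 1 or LPC-Ipsil replicate 2 they were 0 at both sites, with LPC-Ipsil medians of 1.09 to 1.58. Several of these genes, Cd44 and Vim among them, are also expressed by microglia or vessel cells, and microglia markers were higher in the same tissue. The part of those cells in these values was not tested.

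**Figure D5:**
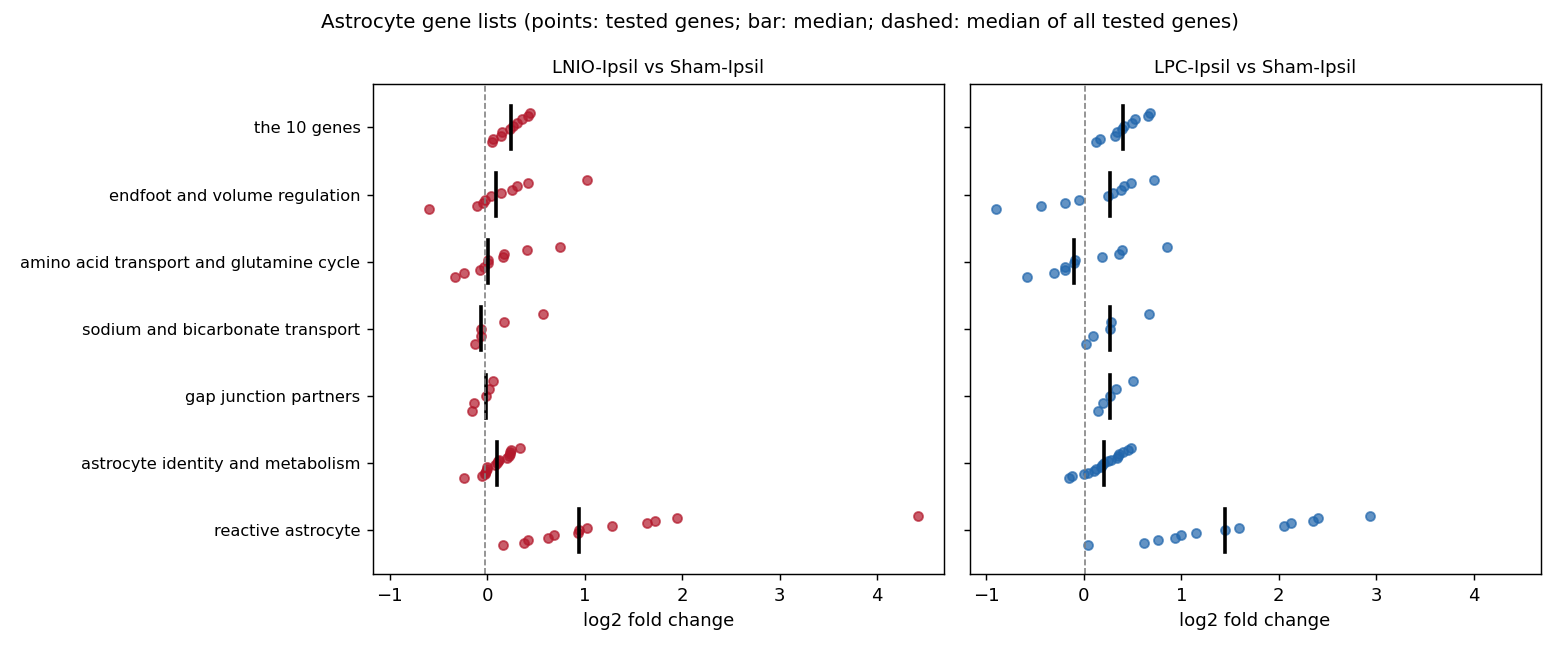
Log2 fold change against Sham-Ipsil of each gene (points) in the 10 genes and 6 further astrocyte lists, with a bar at each list's median and a dashed line at the median of all tested genes. The medians of the 10 genes are 0.25 in LNIO-Ipsil and 0.40 in LPC-Ipsil, against 0.95 and 1.45 for the reactive genes.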

How the data were processed

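RNA from mouse corpus callosum was extracted with TRIzol, depleted of ribosomal RNA and sequenced as paired ends, per the labels' protocols. The authors deposited read counts and FPKM per gene in separate tables. Reads were mapped with HISAT2 2.2.1 to GRCm39, per the submitters' processing notes, which also name R 4.4.2, and name neither a counting tool nor how strand was treated nor which gene models were used. FPKM, as deposited, divides counts by gene length and depth. It served for levels between genes, for the gene lengths in the correlation with length, and for the limma alternatives.

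All 15 libraries in 5 groups entered a single edgeR 4.0.16 quasi-likelihood fit (TMM scaling, robust, no block; R 4.3.3) of the 16795 genes past filterByExpr (minimum count 10, minimum total 15), and p was adjusted by Benjamini-Hochberg over all of them, for 9 comparisons. A gene was called at an adjusted p under 0.05. SEs were computed from the fold change and its F statistic. CPM means and SDs are over 3 libraries. The edgeR steps were tested on simulated counts, for LPC-Ipsil against Sham-Ipsil only. No simulated library was made to stand apart from its group, so that test does not cover calls that hang on single libraries. DESeq2 1.42.0, limma 3.58.1 on log2 FPKM (pseudocounts 0.1 and 1), other filters and left-out libraries were alternatives. No replicate pair agreed within sampling noise (chi-square per degree of freedom 10.1 to 63.7). Same-numbered L-NIO sides deviated together (r of 0.595, 0.351 and 0.268), those of LPC not all (-0.0189, 0.173 and 0.332). The members and lists were chosen with earlier results of these data known. Genes named from each further list were up to 4 with the smallest p at the injury sites, the genes most like the 10 were the 5 with the smallest root mean square difference from their mean profile, and Gfap, Mbp, Csf1r and Snap25 were reference genes.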

Additional observations from a re-analysis of the deposited data

How the results depend on the processing

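Over 24 alternatives, 102 of 2160 log2 values of the 10 genes changed sign, 0 of them called in either fit. Of the 10 genes, 1 was called in LPC-Ipsil against Sham-Ipsil, and the alternatives gave 2 with DESeq2 (Slc1a3 added, adjusted p = 0.0372), 0 with edgeR on the groups compared alone, 0 with limma on log2 FPKM under each of 3 settings, and 3 without both libraries that stood apart, an alternative chosen after seeing the data. Leaving out 1 library gave 0 to 3, with 3 without LPC-Ipsil replicate 3 and 0 without any one Sham-Ipsil library, LPC-Ipsil replicate 1 or LPC-Ipsil replicate 2. For LPC-Ipsil against LPC-Contra, where 0 were called, DESeq2 gave 1, leaving out both libraries 1, and leaving out 1 library 0 to 1, each time Aqp4. For LNIO-Ipsil against LNIO-Contra, where 0 were called, edgeR on those groups alone gave 1, also Aqp4. In the other 6 comparisons 0 of the 10 were called under every alternative. All genes called in LPC-Ipsil against Sham-Ipsil numbered 871, against 1472 with DESeq2, 0 with edgeR on those groups alone, 2 to 4 with limma, 0 or 1 without any one Sham-Ipsil library, LPC-Ipsil replicate 1 or LPC-Ipsil replicate 2, 524 with no filter on low counts, 1646 without LPC-Ipsil replicate 3 and 2360 without both libraries. In LNIO-Ipsil they numbered 0, against 231 with DESeq2, 378 with edgeR on those groups alone, 398 without LPC-Ipsil replicate 3 and 469 without both libraries. In LNIO-Ipsil against Sham-Ipsil, leaving out 1 library moved Kcnj10 between -0.18 and 0.21, Slc1a2 between -0.017 and 0.11, and S100b between -0.027 and 0.30 (log2), so these have no settled direction there. The fit with the replicate number as a block called 652 genes in LPC-Ipsil against Sham-Ipsil, 1 of the 10, and changed no call among the 10 in any comparison. The cause of these changes was not tested.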
